A study of Mus musculus with 11 samples.

Results

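Interferon-stimulated genes are genes whose transcription is switched on by interferons, and 52 of them were followed in regulatory T cells (Tregs) of mouse spleen and visceral adipose tissue (VAT). They were taken by gene symbol from the deposited table of 10992 genes: signalling factors, antiviral effectors and 2 families of interferon-inducible GTPases. The table holds 51 of the 52 (Oas2 is not among its genes), and 49 had a level of at least 1 RPKM (reads scaled to gene length and library size) in at least 2 of the libraries used. Ifi204 and Ifi44 did not reach that level and are described without a test. The cells came from male mice of 25 weeks and had been sorted on CD3, CD4 and Foxp3, without dead cells. Every mouse carried Foxp3 YFP-cre, which places the Cre recombinase under the control of Foxp3, the gene that defines Tregs, and the mice were either Srebf2 WT/WT (here WT) or Srebf2 flox/flox (here KO). The bulk RNA-seq libraries form 4 groups: spleen WT (n = 2), spleen KO (n = 2), VAT WT (n = 3) and VAT KO (n = 3). The labels do not say whether replicates came from separate mice, so the p-values measure the spread between these libraries, which may be technical.

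Interferons act through receptors on the cell surface. Type I interferons bind the receptor made of IFNAR1 and IFNAR2 and lead to ISGF3, a complex with STAT2 and IRF9 that binds the interferon-stimulated response element. Interferon gamma binds IFNGR1 and IFNGR2 and leads to factors that bind the gamma-activated site. The genes switched on include enzymes that degrade or sense viral RNA, a ubiquitin-like protein and its machinery, and large and small GTPases that attack the membranes around intracellular microbes. Tregs of VAT are a resident population known for restraining inflammation of fat. Srebf2 encodes SREBP2, a transcription factor that drives cholesterol synthesis.

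Short sequences that these factors are known to bind were looked for in the promoters of the members. RefSeq promoter windows (build GRCm38.p6, 250 bases before to 50 bases after a gene's start) matched 39 of the 51 members. GAAANNGAAA, the core of the interferon-stimulated response element, and TTCNNNGAA, the form of a gamma-activated site, were searched on both strands. The windows of 3 immunity-related GTPases are given here, Tgtp1 (chr11:48992197-48992496, minus strand), Igtp (chr11:58199306-58199605, plus strand) and Irgm1 (chr11:48871371-48871670, minus strand). Tgtp1 differed most of all members between the tissues in WT and alone passed the test between the genotypes in VAT. Of the 4 genes of its family with a window, these 3 hold GAAANNGAAA, and Ifi47, not shown, holds neither motif. Each window reads 5′ to 3′ along the gene, and capitals mark the matches.
Tgtp1: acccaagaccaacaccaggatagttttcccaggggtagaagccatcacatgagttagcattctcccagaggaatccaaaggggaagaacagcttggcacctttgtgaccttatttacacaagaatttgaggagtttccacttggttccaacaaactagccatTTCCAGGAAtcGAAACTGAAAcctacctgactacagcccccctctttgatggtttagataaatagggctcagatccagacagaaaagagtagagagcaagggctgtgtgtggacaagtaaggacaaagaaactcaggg
Igtp: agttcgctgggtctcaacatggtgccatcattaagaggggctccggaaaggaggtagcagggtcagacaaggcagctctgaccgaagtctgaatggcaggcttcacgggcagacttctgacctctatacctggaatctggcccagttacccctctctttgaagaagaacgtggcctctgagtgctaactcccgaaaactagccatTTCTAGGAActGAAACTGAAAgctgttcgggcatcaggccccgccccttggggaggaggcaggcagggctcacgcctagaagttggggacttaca
Irgm1: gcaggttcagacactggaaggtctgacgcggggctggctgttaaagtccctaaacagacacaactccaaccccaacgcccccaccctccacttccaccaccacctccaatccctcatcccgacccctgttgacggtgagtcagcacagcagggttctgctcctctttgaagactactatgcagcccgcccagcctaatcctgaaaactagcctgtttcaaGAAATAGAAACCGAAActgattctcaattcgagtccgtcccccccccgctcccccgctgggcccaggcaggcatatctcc
In Tgtp1 the match to TTCNNNGAA began at -88 and that to GAAANNGAAA at -77 from the start, and in Igtp they began at -45 and -34, in the same order. Irgm1 held 2 overlapping matches to GAAANNGAAA, at -30 and -24, and none to TTCNNNGAA.

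Short windows around the match nearest the start are shown for members of 4 further families, to compare the bases that flank it. Ifit1 (chr19:34640792-34640825, plus strand), Ifit3 (chr19:34583395-34583428, plus strand), Isg15 (chr4:156200863-156200896, minus strand) and Oas1a (chr5:120907518-120907551, minus strand) are antiviral genes, and Gbp2 (chr3:142620592-142620625, plus strand), Gbp3 (chr3:142559993-142560026, plus strand) and Gbp5 (chr3:142496757-142496790, plus strand) encode guanylate-binding proteins. Capitals again mark GAAANNGAAA, which reads TTTCNNTTTC where it lies on the other strand.
Ifit1: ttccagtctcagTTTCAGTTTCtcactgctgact
Ifit3: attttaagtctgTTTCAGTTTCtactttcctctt
Isg15: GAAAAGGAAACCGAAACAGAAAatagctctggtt
Oas1a: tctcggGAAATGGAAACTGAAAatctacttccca
Gbp2: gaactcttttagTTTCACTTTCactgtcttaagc
Gbp3: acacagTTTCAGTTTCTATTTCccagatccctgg
Gbp5: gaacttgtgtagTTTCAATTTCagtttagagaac
In Isg15 3 matches overlapped each other and in Oas1a and Gbp3 2 did. The 7 matches nearest the start lay between -165 and -14.

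Over the gene set, 22 of the 39 matched members held GAAANNGAAA (56.4%), against 3.99% of 27025 genes with a window and 3.44% of all 32851 windows. TTCNNNGAA was found in 12 of the 39 (30.8%) against 9.55% of genes and 8.30% of windows, and both in 7 of the 39 against 0.54% of genes. The motifs overlapped each other in 1 member, Bst2. GAAANNGAAA was in all 5 guanylate-binding protein genes with a window, in 3 of 4 immunity-related GTPase genes and in 3 of 11 of the other antiviral effectors. It was in 2 of 3 IFIT genes (not Ifit2), 2 of 3 OAS genes, 3 of 4 RNA sensor genes and 2 of 2 PYHIN genes. Of the ISG15 system it was in 1 of 3, of the ISGF3 and IRF factors in 1 of 3, and of Parp9, Parp14 and Dtx3l in 0 of 1 with a window. These counts describe letters in the windows only, and the gene set was chosen for its response to interferon.

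The labels were checked first on the targeted gene. Srebf2 stood at 10.5 and 23.2 RPKM in spleen WT, 2.59 and 1.59 in spleen KO, 16.6, 15.6 and 30.5 in VAT WT and 0.263, 0.60 and 1.23 in VAT KO, and fell by 3.67 ± 0.33 in VAT KO (log2(RPKM + 1) scale, SE; limma, adjusted p = 0.00081). In spleen its change was -2.45 ± 0.40 (adjusted p = 0.244). All 7 Treg markers were present, with a summed level of 634 to 685 RPKM in spleen and 967 to 1044 in VAT. From spleen to VAT, Foxp3, Ctla4 and Tnfrsf18 rose in both genotypes and Il2ra rose in WT. Cd3e fell in both genotypes, and Cd4 and Ikzf2 passed the test in neither. In KO the call of Foxp3 was lost with 1 of the 10 libraries left out in turn and that of Cd3e with 8. The 2 spleen WT libraries agreed less well with each other (r = 0.932 over genes) than replicates of the other groups (0.968 to 0.974). Read depth is not known from RPKM values, so no counting error is given.

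Tregs of VAT had lower RNA levels of most interferon-stimulated genes than Tregs of spleen in WT, and of 24 of the 49 tested in KO. In WT, 36 of the 49 tested members fell and 1 rose at an adjusted p under 0.05, where 15.4% of all 10429 tested genes fell and 10.7% rose. The median change of the members was -0.98 on the log2 scale, against -0.12 for all genes. At an unadjusted p under 0.05 41 members were lower and 1 higher in WT (24.5% and 15% of all genes). In KO, 24 of 49 fell and none rose, where 6.94% of genes fell and 7.65% rose, with a median of -0.75 against -0.09. In KO 35 members were lower and 0 higher at an unadjusted p under 0.05 (15.7% and 12.5% of all genes). The 22 members that fell in both are Irf9, Irf7, Usp18, Ifit1, Oas1a, Oas3, Ddx58, Zbp1, Ifi203, Samhd1, Rtp4, Sp100, Ifi35, Gbp2, Gbp2b, Gbp3, Gbp5, Iigp1, Irgm1, Igtp, Tgtp1 and Ifi47. Among members with a promoter window, GAAANNGAAA was in 17 of the 28 called as falling in WT and in 5 of the other 11. Those 11 include Cmpk2, which rose, and Ifi44, which was not tested. Of the 5, Stat2, Eif2ak2, Bst2 and Gbp7 were lower in VAT WT without overlap but did not pass the test, and Rsad2 overlapped. In sorted bulk samples, fewer cells of a type and less RNA per cell cannot be told apart.

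The separation was visible library by library. Of the 49 members 3 lay above 0 in WT and 2 in KO (41% and 41.4% of all genes), and the VAT libraries of one genotype lay below its spleen libraries without overlap in 43 members in WT and 43 in KO (31% and 30.4% of all genes). All 6 VAT libraries lay below all 4 spleen libraries in 37 of the 49 members, against 15.4% of all genes, and above them in 0 members, against 10.4% of all genes. The summed level of the 51 members was 1946 to 2618 RPKM in spleen, 947 to 1089 in VAT WT and 1101 to 1121 in VAT KO. A large part of each sum was Ifi27l2a, at 450 to 1014 RPKM in spleen and 231 to 305 in VAT. Scaling the libraries by median ratios moved the median of all genes from -0.12 to 0.013 in WT, and the members' median from -0.98 to -0.83. Of the 36 falls in WT, 26 passed the threshold with each of the 10 libraries left out in turn, and of the 24 in KO 11 did.

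**Figure D1:**
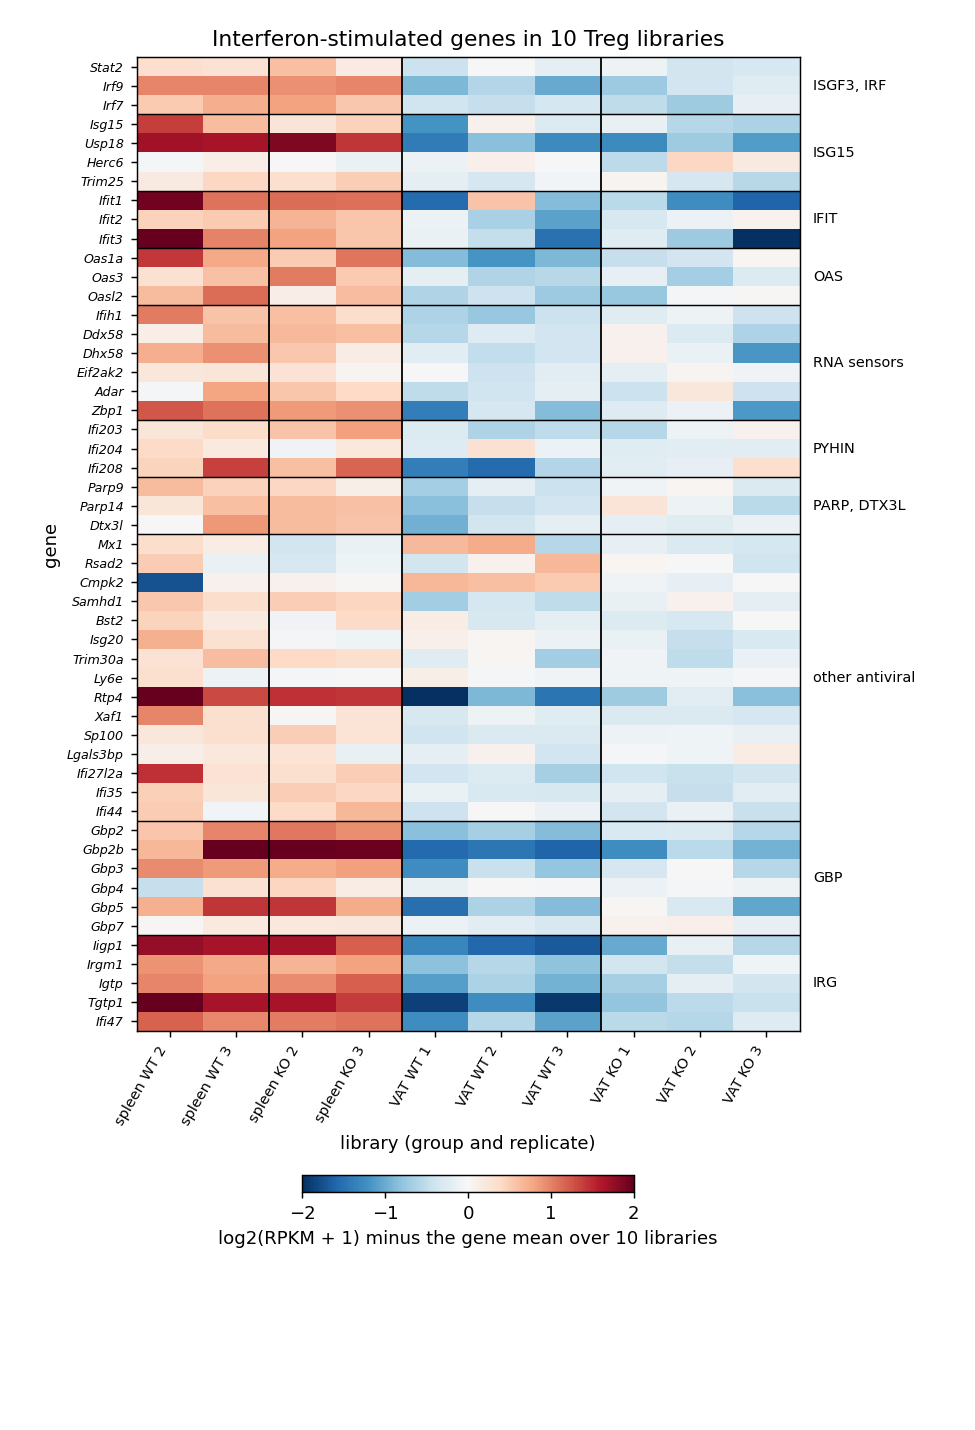
Level of each of the 51 members in the 10 libraries, shown as the difference in log2(RPKM + 1) from the gene's own mean over the libraries, with colours capped at 2 in either direction. Genes are grouped by role, and the 4 spleen libraries are mostly above the mean and the 6 VAT libraries mostly below it.

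Levels of markers of other cells also differed between the tissues. The myeloid list has 4 of its 16 genes in the table, and their sum was 179 to 241 RPKM in spleen, 12.3 to 15.2 in VAT WT and 20.3 to 45.6 in VAT KO. Nearly all of it was Ctss, a lysosomal protease, while Csf1r was at most 0.828 RPKM and Adgre1 at most 1.45 in any library. Ctss fell by 3.89 ± 0.27 in WT and fell by 2.42 ± 0.27 in KO from spleen to VAT, and rose by 1.31 ± 0.25 in VAT KO against VAT WT (adjusted p = 0.0449, up to 0.263 with 1 library left out). Adgre1 fell in WT too, and Fcer1g was called in neither genotype. The B cell list (7 of 10) summed to 99.5 to 134 RPKM in spleen, 62.8 to 220.3 in VAT WT and 60.1 to 119 in VAT KO, with the highest sum in VAT WT replicate 2. Of the 7, H2-Eb1 alone was called. It rose by 1.71 in WT (limma adjusted p = 0.00483, 0.0544 without spleen WT replicate 2) and by 1.25 in KO (0.0384, up to 0.254 with 1 library left out). The changes of 2 of the 7 lay below 0 in WT and of 4 in KO. Plasmacytoid dendritic cells, which make type I interferon, have 5 of 6 markers in the table. Their sum was 71.3 to 95.4 RPKM in spleen and 64.7 to 87.7 in VAT, mostly Bst2, itself a member here, with Tcf4 at most 0.321. Ly6c2 and Irf8 of that list had higher values in VAT, with changes of 0.99 ± 0.37 and 0.94 ± 0.43 in WT and 1.07 ± 0.37 and 0.82 ± 0.43 in KO that did not pass the test (adjusted p = 0.0671 and 0.125 in WT and 0.0775 and 0.240 in KO). Markers of NK, gamma-delta and CD8 cells (3 of 7) summed to 35.02 to 61.4 RPKM in spleen and 74.7 to 191 in VAT. Of the 3, Nkg7 rose by 1.49 in WT (adjusted p up to 0.0621 without spleen WT replicate 3) and rose by 2.53 in KO. The changes of Cd8a and Cd8b1 lay below 0 in both genotypes. Those of stroma, endothelium and fat cells (2 of 9, Pecam1 and Lipe) summed to 18.9 to 38.3 RPKM in spleen, 6.75 to 9.42 in VAT WT and 11.8 to 14.4 in VAT KO, with no overlap between these sums. Pecam1 fell by 1.85 in WT and by 1.25 in KO, the latter lost without spleen KO replicate 2 or VAT KO replicate 1 (limma adjusted p up to 0.208). Lipe was called in neither genotype. Of neutrophil markers 1 of 7 was in the table, Mmp9, at 0.387 to 4.93 RPKM in spleen and 112 to 217 in VAT, and of red cell markers 0 of 4 were. The part of such cells in the results was not tested.

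**Figure D2:**
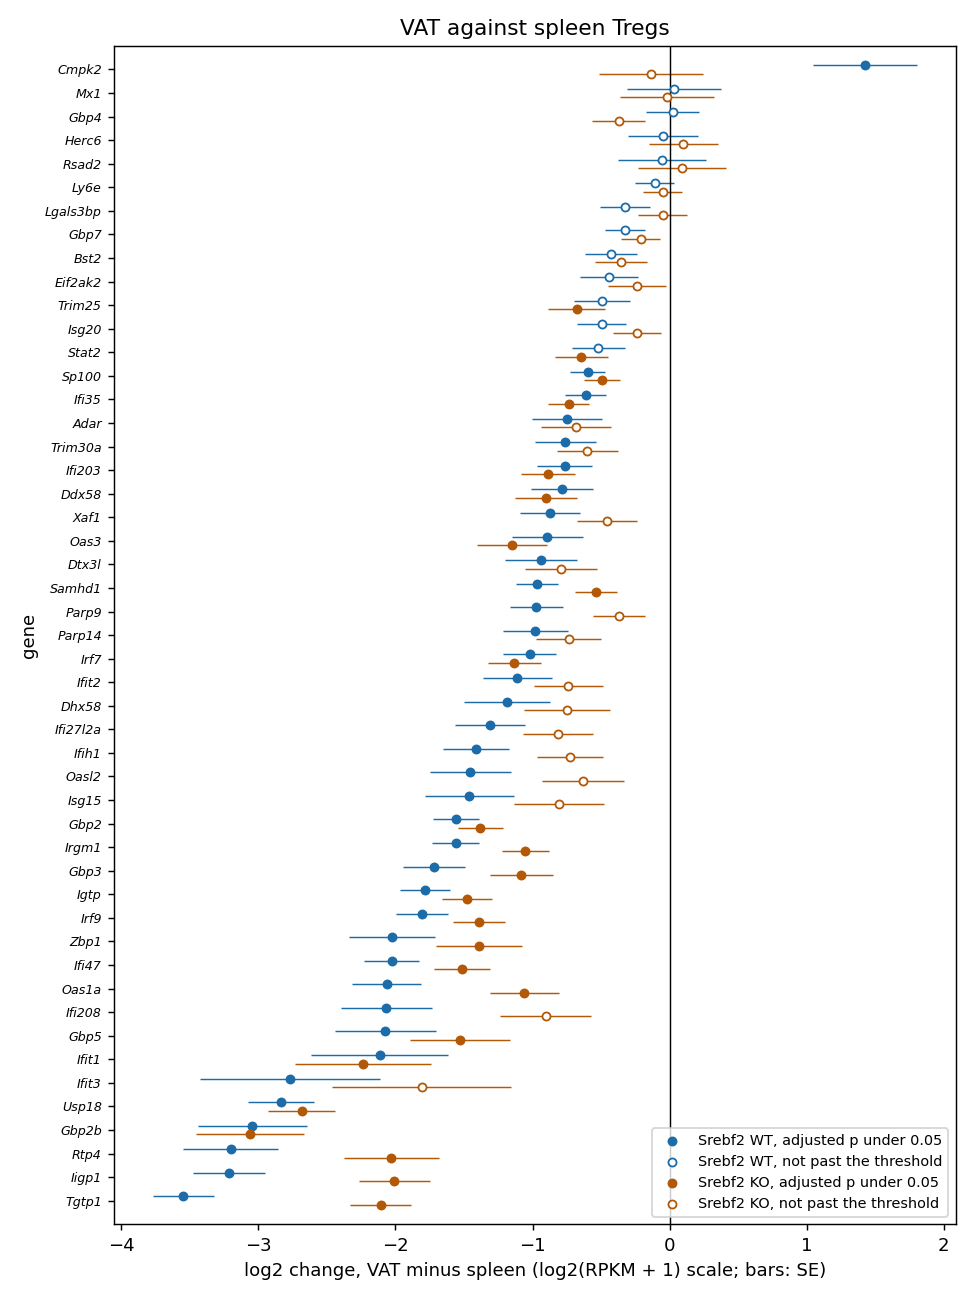
Change of each tested member from spleen to VAT on the log2(RPKM + 1) scale, in WT and in KO, with SE bars and filled points for an adjusted p under 0.05. Of 49 members, 46 lie below 0 in WT and 47 in KO, with Tgtp1 lowest in WT and Gbp2b lowest in KO.

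Among the transcription factors, Irf9, the DNA-binding partner in ISGF3, separated the tissues most clearly. Irf9 stood at 29.6 and 29.8 RPKM in spleen WT, 28.4 and 29.7 in spleen KO, 7.38, 9.4 and 6.77 in VAT WT and 8.46, 11.01 and 12.1 in VAT KO. The 4 spleen libraries were close to each other and all 6 VAT libraries were far below them. Irf9 fell by 1.81 ± 0.19 in WT (adjusted p = 2.18e-05) and fell by 1.39 ± 0.19 in KO (adjusted p = 0.000289). Irf7, which amplifies the production of type I interferon, ranged from 16.4 to 20.1 RPKM in spleen and 6.41 to 9.77 in VAT, and fell by 1.02 ± 0.19 in WT and fell by 1.13 ± 0.19 in KO. Stat2, a subunit of ISGF3, ranged from 14.8 to 20.2 RPKM in spleen and 9.39 to 13.02 in VAT. Its change was -0.52 ± 0.19 in WT (adjusted p = 0.0648) and it fell by 0.64 ± 0.19 in KO, a call lost with 6 of the 10 libraries left out in turn, among them either spleen KO library and each VAT KO library (adjusted p up to 0.337).

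The ISG15 system attaches a ubiquitin-like protein to other proteins. Usp18, which removes ISG15 and dampens the type I receptor, stood at 24.5 and 24.1 RPKM in spleen WT, 28.3 and 20.5 in spleen KO, 2.02, 3.47 and 2.31 in VAT WT and 2.296, 3.88 and 2.698 in VAT KO. The 6 VAT libraries lay far below the 4 spleen libraries, with no overlap. Usp18 fell by 2.84 ± 0.24 in WT and fell by 2.69 ± 0.24 in KO (adjusted p = 3.12e-06 and 8.39e-06). Isg15 itself stood at 59.4 and 34.7 RPKM in spleen WT, 26.8 and 30.8 in spleen KO, 9.15, 23.5 and 18.3 in VAT WT and 19.9, 14.7 and 14.01 in VAT KO, with spleen WT replicate 2 the highest and VAT WT replicate 1 the lowest. It fell by 1.46 ± 0.33 in WT (adjusted p = 0.00598, but 0.0699 without spleen WT replicate 2), and its change in KO was -0.81 ± 0.33 (adjusted p = 0.123). Herc6, a ligase for ISG15, overlapped between the tissues, at 6.78 to 8.39 RPKM in spleen and 4.94 to 10.5 in VAT, with changes of -0.048 ± 0.25 and 0.10 ± 0.25. Trim25, a ligase that acts on the RNA sensor RIG-I, ranged from 11.8 to 14.8 RPKM in spleen and 6.69 to 10.8 in VAT. It fell by 0.68 ± 0.21 in KO (adjusted p = 0.0460), a call lost with 7 of the 10 libraries left out in turn, either spleen KO library among them (up to 0.258).

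IFIT proteins bind viral RNA that lacks the host's cap marks. Ifit1 stood at 32.3 and 17.5 RPKM in spleen WT, 18.01 and 17.7 in spleen KO, 2.01, 12.04 and 3.78 in VAT WT and 5.02, 2.69 and 1.87 in VAT KO. VAT WT replicate 2 was well above the other VAT libraries and still below all of spleen. Ifit1 fell by 2.12 ± 0.50 in WT (adjusted p = 0.00812, 0.0821 without spleen WT replicate 2) and fell by 2.24 ± 0.50 in KO (adjusted p = 0.00903, up to 0.0696 without either spleen KO library). Ifit3 stood at 52.4 and 11.1 RPKM in spleen WT, 9.52 and 7.903 in spleen KO, 4.51, 3.34 and 1.15 in VAT WT and 4.09, 2.65 and 0.135 in VAT KO, with spleen WT replicate 2 far above every other library. It fell by 2.77 ± 0.65 in WT (adjusted p = 0.00836, 0.114 without that library), and its change in KO was -1.81 ± 0.65 (adjusted p = 0.0877). Ifit2 was steadier in spleen, at 12.6 to 14.9 RPKM, against 3.69 to 8.08 in VAT WT and 6.91 to 9.43 in VAT KO. It fell by 1.11 ± 0.25 in WT, and its change in KO was -0.74 ± 0.25 (adjusted p = 0.0688).

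OAS proteins make the messenger that activates RNase L on sensing double-stranded RNA. Oas1a stood at 31.3 and 19.4 RPKM in spleen WT, 16.2 and 24.6 in spleen KO, 5.66, 4.36 and 5.47 in VAT WT and 7.796, 8.25 and 11.5 in VAT KO. The groups did not overlap between tissues, and in VAT every KO library lay above every WT library. Oas1a fell by 2.06 ± 0.25 in WT (adjusted p = 7.62e-05) and fell by 1.06 ± 0.25 in KO (adjusted p = 0.0130, up to 0.178 without spleen KO replicate 3 or VAT KO replicate 1). Oas3 ranged from 3.64 to 6.67 RPKM in spleen and 1.35 to 2.35 in VAT. It fell by 0.89 ± 0.26 in WT, a call lost without spleen WT replicate 3 or VAT WT replicate 2 or 3 (adjusted p up to 0.0813), and fell by 1.15 ± 0.26 in KO, lost without spleen KO replicate 2 (0.128). Oasl2 was low everywhere, at 0.946 to 2.85 RPKM in spleen and 0.058 to 0.814 in VAT, and fell by 1.46 ± 0.30 in WT.

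Of 6 sensors and other proteins that bind viral RNA or DNA, 5 fell in WT and 2, Ddx58 and Zbp1, in KO (15.4% and 6.94% of all genes). Zbp1, which senses Z-form nucleic acid and can start cell death, stood at 43.1 and 38.4 RPKM in spleen WT, 32.6 and 34.2 in spleen KO, 6.14, 13.7 and 9.26 in VAT WT and 14.6, 16.1 and 7.43 in VAT KO. Its lowest spleen library was above its highest VAT library in either genotype. Zbp1 fell by 2.02 ± 0.31 in WT (adjusted p = 0.000525) and fell by 1.39 ± 0.31 in KO (adjusted p = 0.00989, up to 0.0823 without either spleen KO library). Ifih1, the sensor MDA5, ranged from 2.04 to 3.904 RPKM in spleen and 0.402 to 1.22 in VAT, and fell by 1.41 ± 0.24 in WT, with a change of -0.73 ± 0.24 in KO (adjusted p = 0.0644). Ddx58, the sensor RIG-I, ranged from 13.5 to 19.7 and 7.53 to 12.96. It fell by 0.79 ± 0.23 in WT (adjusted p up to 0.113 without spleen WT replicate 3, VAT WT replicate 1 or VAT WT replicate 3) and fell by 0.90 ± 0.23 in KO (up to 0.118 without either spleen KO library or VAT KO replicate 3). Dhx58, the related regulator LGP2, fell by 1.19 ± 0.31 in WT and changed by -0.75 ± 0.31 in KO (adjusted p = 0.139). Adar, which edits adenosine in double-stranded RNA, fell by 0.75 ± 0.25 in WT at an adjusted p of 0.0459, which reached 0.306 and was lost with 8 of the 10 libraries left out in turn, spleen WT replicate 3 and each VAT WT library among them, and changed by -0.68 ± 0.25 in KO (adjusted p = 0.0956). Eif2ak2, the kinase PKR that halts translation, had 4.01 to 4.92 RPKM in spleen and 2.62 to 4.01 in VAT, with changes of -0.44 ± 0.21 and -0.24 ± 0.21 that did not pass the test.

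PYHIN proteins are DNA sensors of the interferon-inducible p200 family. Ifi208 stood at 15.7 and 30.7 RPKM in spleen WT, 17.7 and 26.6 in spleen KO, 3.75, 3.26 and 7.19 in VAT WT and 9.56, 9.94 and 14.5 in VAT KO. The VAT KO libraries lay between those of VAT WT and those of spleen, overlapping neither. Ifi208 fell by 2.07 ± 0.33 in WT (adjusted p = 0.000647), and its change in KO was -0.90 ± 0.33 (adjusted p = 0.0909). Ifi203 ranged from 29.1 to 43.9 RPKM in spleen and 15.6 to 26.1 in VAT. It fell by 0.76 ± 0.20 in WT and fell by 0.89 ± 0.20 in KO, the latter lost without spleen KO replicate 3 (adjusted p = 0.117). Ifi204, under the filter, was at 0.489 to 1.05 RPKM in spleen and 0.306 to 0.93 in VAT.

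Parp9, Parp14 and Dtx3l encode ADP-ribosyl transferases and a ubiquitin ligase that forms a complex with PARP9. In WT Parp9 fell by 0.97 ± 0.19, Parp14 fell by 0.98 ± 0.24 and Dtx3l fell by 0.94 ± 0.26, the last lost without spleen WT replicate 3 or VAT WT replicate 1 (adjusted p up to 0.140). The 3 changes in WT were nearly equal. In KO the changes were -0.37 ± 0.19, -0.73 ± 0.24 and -0.79 ± 0.26, and none passed the test (adjusted p = 0.233, 0.0577 and 0.0633). Parp9 stood at 24.8 and 21.9 RPKM in spleen WT, 21.3 and 17.1 in spleen KO, 9.46, 13.7 and 11.4 in VAT WT and 14.97, 16.2 and 12.7 in VAT KO. All 6 VAT libraries lay below all 4 spleen libraries for Parp9 and Dtx3l, but not for Parp14, whose VAT KO replicate 1 (15.3 RPKM) was above spleen WT replicate 2 (15.03).

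The remaining antiviral effectors were the most mixed group, with 7 of 14 tested falling in WT and 4 in KO (15.4% and 6.94% of all genes). Rtp4, a receptor transporter protein that type I interferon induces, had the largest fall among them. It stood at 23.8 and 13.8 RPKM in spleen WT, 15.3 and 15.03 in spleen KO, 0.315, 2.19 and 1.16 in VAT WT and 2.63, 4.11 and 2.32 in VAT KO. The lowest spleen library was far above the highest VAT library. Rtp4 fell by 3.20 ± 0.35 in WT (adjusted p = 2.88e-05), which is 9.204-fold on the RPKM + 1 scale, and fell by 2.03 ± 0.35 in KO (adjusted p = 0.00167), which is 4.09-fold. Samhd1, which depletes the nucleotides that viruses need, stood at 67.99 and 59.3 RPKM in spleen WT, 65.3 and 62.4 in spleen KO, 28.3, 35.9 and 32.1 in VAT WT and 41.8, 49.1 and 40.6 in VAT KO. VAT WT was lowest, VAT KO was above it and spleen of either genotype was highest, with no overlap between these. Samhd1 fell by 0.97 ± 0.15 in WT and fell by 0.54 ± 0.15 in KO, the latter lost without either spleen KO library or without VAT KO replicate 1 or 3 (adjusted p up to 0.180).

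Ifi27l2a, a small hydrophobic protein, was the member with the highest level. It stood at 1014 and 450.3 RPKM in spleen WT, 459.6 and 520.2 in spleen KO, 283, 305 and 231 in VAT WT and 279, 271 and 285 in VAT KO. Spleen WT replicate 2 was far above the other spleen libraries, and all VAT libraries were below all spleen libraries. Ifi27l2a fell by 1.31 ± 0.25 in WT (adjusted p = 0.00246), and its change in KO was -0.81 ± 0.25 (adjusted p = 0.0502). Sp100, a nuclear body protein, fell by 0.60 ± 0.13 in WT and fell by 0.49 ± 0.13 in KO, the latter lost without either spleen KO library or any VAT KO library (adjusted p up to 0.213). Ifi35, a partner of NMI, fell by 0.61 ± 0.15 in WT (adjusted p = 0.0545 without spleen WT replicate 2) and fell by 0.74 ± 0.15 in KO (0.0588 without spleen KO replicate 2). Xaf1, which counters inhibitors of apoptosis, fell by 0.87 ± 0.22 in WT (0.122 without spleen WT replicate 2), and Trim30a fell by 0.76 ± 0.22 in WT (up to 0.0952 without spleen WT replicate 3 or VAT WT replicate 3).

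Other effectors did not pass the test between the tissues. Ly6e, a membrane protein that limits entry of some viruses, had 115 to 155 RPKM in spleen and 116 to 134 in VAT, with changes of -0.11 ± 0.14 and -0.049 ± 0.14. Bst2, or tetherin, which holds budding virus on the cell, had 62.3 to 89.5 and 52.2 to 73.1 RPKM, with changes of -0.43 ± 0.19 and -0.35 ± 0.19. Lgals3bp, a secreted glycoprotein, had 24.6 to 32.99 and 20.6 to 30.3 RPKM, with changes of -0.32 ± 0.18 and -0.051 ± 0.18. Isg20, an RNA exonuclease, had 14.2 to 25.3 and 10.7 to 16.3, with changes of -0.50 ± 0.18 and -0.24 ± 0.18 (limma adjusted p = 0.0568 and 0.426). None of these 4 passed the test in either genotype. The ranges pool the genotypes. Within a genotype Isg20 was lower in VAT without overlap in both, and Bst2 and Lgals3bp were in WT. Mx1, a GTPase that blocks influenza virus, and Rsad2, the enzyme viperin, were near the filter, at 0.493 to 2.71 RPKM in VAT for Mx1 and 0.509 to 1.68 in spleen for Rsad2, with changes of 0.031 ± 0.34 and -0.057 ± 0.32 in WT. Ifi44, under the filter, was at 0.329 to 1.18 RPKM in spleen and 0.0050 to 0.367 in VAT.

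Cmpk2, a mitochondrial nucleotide kinase and neighbour of Rsad2, was the one member that rose in VAT WT. It stood at 0.727 and 5.09 RPKM in spleen WT, 5.12 and 4.83 in spleen KO, 8.16, 7.73 and 7.28 in VAT WT and 4.501, 4.12 and 4.73 in VAT KO. Spleen WT replicate 2 was far below every other library, and the 3 VAT WT libraries were the highest. Cmpk2 rose by 1.43 ± 0.38 in WT (adjusted p = 0.0161), a call lost without spleen WT replicate 2, where the change was 0.52 at an adjusted p of 0.127. In KO its change was -0.14 ± 0.38 (adjusted p = 0.864).

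Guanylate-binding proteins are large GTPases that coat the vacuoles of intracellular microbes and are known mostly as targets of interferon gamma. Of the 6, 4 fell in both genotypes, where 15.4% of all genes fell in WT and 6.94% in KO. Gbp2 stood at 51.1 and 68.9 RPKM in spleen WT, 72.5 and 66.6 in spleen KO, 18.9, 21.2 and 18.5 in VAT WT and 27.6, 27.9 and 22.9 in VAT KO. Every VAT library lay far below every spleen library. Gbp2 fell by 1.56 ± 0.17 in WT (adjusted p = 2.38e-05) and fell by 1.38 ± 0.17 in KO (adjusted p = 0.000105). Gbp2b, also known as GBP1, stood at 4.17 and 15.6 RPKM in spleen WT, 15.4 and 11.7 in spleen KO, 0.107, 0.199 and 0.070 in VAT WT and 0.368, 1.24 and 0.684 in VAT KO, with no VAT WT library above 0.199 RPKM. It fell by 3.04 ± 0.40 in WT and fell by 3.06 ± 0.40 in KO (adjusted p = 0.000130 and 0.000190).

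Gbp3 stood at 39.5 and 36.9 RPKM in spleen WT, 34.3 and 36.1 in spleen KO, 7.87, 14.5 and 11.3 in VAT WT and 15.6, 20.1 and 13.2 in VAT KO. Gbp5, which promotes inflammasome assembly, stood at 6.81 and 11.8 RPKM in spleen WT, 11.8 and 6.99 in spleen KO, 0.674, 2.07 and 1.596 in VAT WT and 3.81, 2.87 and 1.32 in VAT KO. Both were lower in every VAT library than in every spleen library. Gbp3 fell by 1.72 ± 0.23 in WT and fell by 1.08 ± 0.23 in KO, the latter lost without spleen KO replicate 3 (adjusted p = 0.0668). Gbp5 fell by 2.07 ± 0.37 in WT and fell by 1.53 ± 0.37 in KO, the latter lost without spleen KO replicate 2 (adjusted p = 0.161). Gbp4 and Gbp7 did not pass the test. Over both genotypes they had 40.9 to 76.3 and 45.8 to 52.95 RPKM in spleen and 50.97 to 56.6 and 35.99 to 48.6 in VAT. Within each genotype Gbp7 was lower in VAT than in spleen without overlap. Gbp4 was lower without overlap in KO and overlapped in WT. The changes of Gbp4 were 0.021 ± 0.19 in WT and -0.37 ± 0.19 in KO and those of Gbp7 -0.33 ± 0.14 and -0.21 ± 0.14, none past the threshold.

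Immunity-related GTPases, which disrupt vacuoles around bacteria and parasites, all 5 fell in both genotypes (15.4% of all genes in WT and 6.94% in KO). Each of the 10 calls held with any 1 library left out. Tgtp1 stood at 150.4 and 109.7 RPKM in spleen WT, 110.4 and 92.3 in spleen KO, 8.68, 14.1 and 8.29 in VAT WT and 19.5, 23.7 and 25.1 in VAT KO. Its lowest spleen library was well above its highest VAT library, and the VAT KO libraries were all above the VAT WT libraries. Tgtp1 fell by 3.55 ± 0.22 in WT (adjusted p = 2.28e-07), or 11.7-fold on the RPKM + 1 scale, and fell by 2.11 ± 0.22 in KO (adjusted p = 3.64e-05), or 4.31-fold. Iigp1 stood at 20.5 and 18.9 RPKM in spleen WT, 19.1 and 13.5 in spleen KO, 1.57, 1.15 and 0.989 in VAT WT and 2.17, 4.702 and 3.27 in VAT KO. The same order of groups was seen, with VAT WT lowest, VAT KO next and spleen highest. Iigp1 fell by 3.22 ± 0.26 in WT and fell by 2.01 ± 0.26 in KO (adjusted p = 2.21e-06 and 0.000198).

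Igtp, which protects against Toxoplasma, stood at 113 and 101 RPKM in spleen WT, 111 and 132 in spleen KO, 26.2, 36.3 and 29.2 in VAT WT and 35.6, 50.03 and 44.05 in VAT KO. Irgm1, a regulator of the other family members and of autophagy, stood at 33.4 and 30.2 RPKM in spleen WT, 28.5 and 31.4 in spleen KO, 9.42, 11.5 and 9.59 in VAT WT and 13.4, 12.3 and 16.4 in VAT KO. Ifi47 stood at 41.3 and 35.4 RPKM in spleen WT, 37.2 and 38.6 in spleen KO, 6.94, 11.5 and 7.92 in VAT WT and 11.8, 11.6 and 14.6 in VAT KO. In these 3 genes the tissues did not overlap, and for Irgm1 and Ifi47 the VAT KO libraries were above the VAT WT libraries without overlap. In WT Igtp fell by 1.78 ± 0.18, Irgm1 fell by 1.56 ± 0.17 and Ifi47 fell by 2.03 ± 0.20. In KO they fell by 1.48 ± 0.18, fell by 1.05 ± 0.17 and fell by 1.51 ± 0.20, with adjusted p of 0.000123, 0.00113 and 0.000252.

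**Figure D3:**
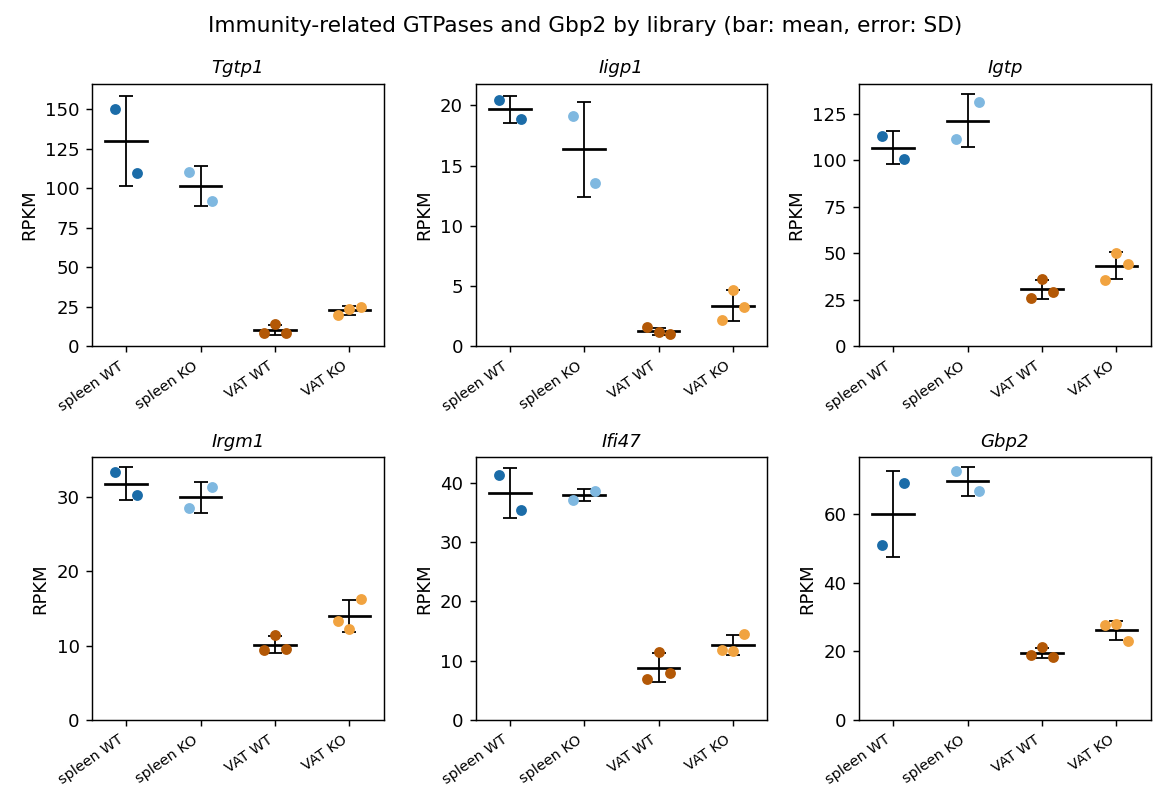
RPKM of the 5 immunity-related GTPases and Gbp2 by group, on linear axes from 0, with a point for each library, a bar for the group mean and error bars for the SD. In VAT the 3 KO libraries of Tgtp1 (19.5 to 25.1 RPKM) sit above the 3 WT libraries (8.29 to 14.1), and both sit below spleen.

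Between the genotypes few of these genes passed the threshold. In VAT, 1 of 49 members, Tgtp1, rose in KO against WT and 0 fell, where 0.307% of all genes rose and 0.115% fell. Tgtp1 rose by 1.10 ± 0.20 (adjusted p = 0.0403), from a mean of 10.3 ± 3.22 RPKM (SD, n = 3) to 22.8 ± 2.87 (SD, n = 3), higher in 3 of 3 libraries. The call was lost without VAT WT replicate 1 or 3, without any VAT KO library and without either spleen KO library, where the adjusted p was up to 0.236, and the change stayed between 0.97 and 1.32. With a pseudocount of 5 the adjusted p was 0.0638. Tgtp1 is also a near copy of Tgtp2: their transcripts were 99.75% identical over 99.57% of the length, so reads of the pair cannot be assigned with certainty.

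Below that threshold, 13 members were higher in VAT KO and 0 lower at an unadjusted p under 0.05, where 4.4% of genes were higher and 2.95% lower. They are Irf9, Ifit2, Oas1a, Ifi208, Samhd1, Rtp4, Gbp2, Gbp3, Iigp1, Irgm1, Igtp, Tgtp1 and Ifi47. Of the 49, 34 had a change above 0 (54.5% of all genes did), and the median was 0.17 against 0.02 for all genes. The 3 KO libraries lay above the 3 WT libraries without overlap in 12 members (8.97% of all genes) and below them in 2 (6.16%).

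All 5 immunity-related GTPases were among the 13, with changes of 1.10 ± 0.20 for Tgtp1, 0.94 ± 0.23 for Iigp1, 0.50 ± 0.18 for Ifi47, 0.49 ± 0.16 for Igtp and 0.42 ± 0.15 for Irgm1. Apart from Tgtp1 their adjusted p lay between 0.173 and 0.477. Ifi208 had the largest change of all members, 1.14 ± 0.30 (adjusted p = 0.203), Rtp4 had 0.92 ± 0.31 and Oas1a 0.71 ± 0.23. Gbp2 and Gbp3 changed by 0.40 ± 0.15 and 0.52 ± 0.20, Samhd1 by 0.44 ± 0.14, Irf9 by 0.38 ± 0.17 and Ifit2 by 0.49 ± 0.22. In the other direction the largest values were -0.68 ± 0.34 for Cmpk2, with 8.16, 7.73 and 7.28 RPKM in VAT WT and 4.501, 4.12 and 4.73 in VAT KO, and -0.55 ± 0.31 for Mx1 (adjusted p = 0.756 and 0.841). Isg15, Irf7 and Stat2 had changes of 0.013 ± 0.29, -0.060 ± 0.17 and -0.055 ± 0.17. Among markers of other cells, Ctss alone passed the test between VAT KO and VAT WT. It rose, as given above, a call lost with 7 of the 10 libraries left out in turn. The sum of Pecam1 and Lipe was higher in VAT KO without overlap, but neither gene passed the test (Pecam1 changed by 0.80 ± 0.27, adjusted p = 0.435). All 7 B cell markers lay below 0 with a median of -0.44, none past the test. The part of such cells in these values was not tested.

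**Figure D4:**
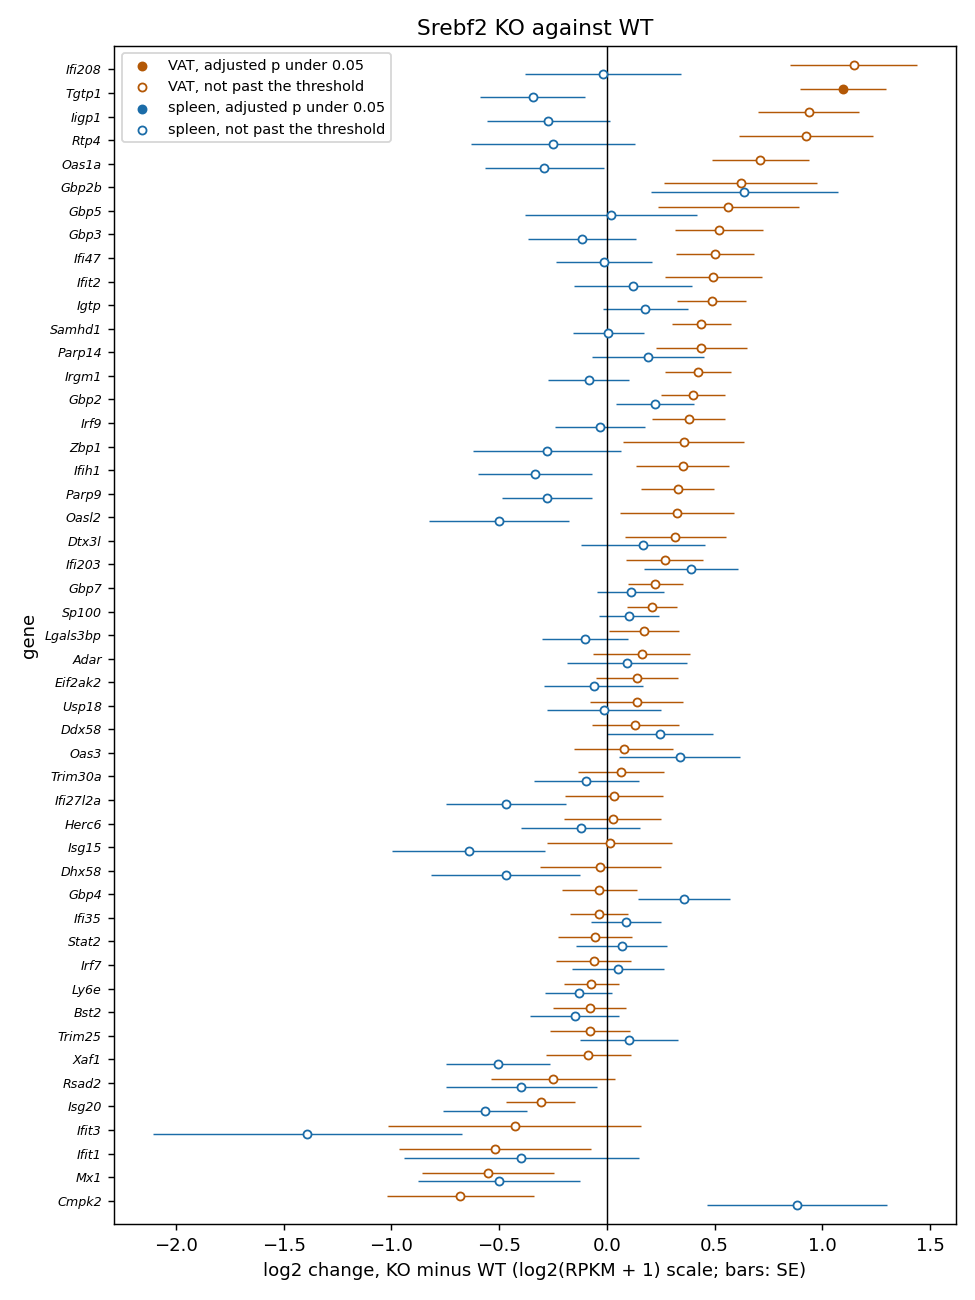
Change of each tested member in KO against WT on the log2(RPKM + 1) scale, in VAT and in spleen, with SE bars, sorted by the change in VAT. Tgtp1 in VAT is the one filled point (adjusted p under 0.05), and the spleen values lie on both sides of 0.

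In spleen no member passed the limma test between genotypes (0% of all genes did), and at an unadjusted p under 0.05 0 members were higher and 1, Isg20, was lower (3.89% and 4.48% of all genes). Isg20 had 25.3 and 18.9 RPKM in spleen WT and 14.7 and 14.2 in spleen KO, a change of -0.57 ± 0.19 (adjusted p = 0.582). Of the 49 members 20 lay above 0 and 29 below (46.8% of all genes lay above), with a median of -0.06. The KO libraries lay above the WT libraries without overlap in 3 members and below them in 10 (15% and 17.5% of all genes). The widest values were -1.39 ± 0.72 for Ifit3 and 0.88 ± 0.42 for Cmpk2, both with spleen WT replicate 2 far from replicate 3. Without spleen WT replicate 3, which leaves 1 WT library that is assumed to vary like the other groups, 7 members passed the test among 1395 genes called in all. Cmpk2 (1.79), Gbp2b (1.48) and Gbp4 (0.74) were then higher, and Ifit3 (-2.46), Ifi27l2a (-1.05), Xaf1 (-0.83) and Isg20 (-0.77) lower. Without spleen WT replicate 2 none passed.

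The interaction of genotype and tissue asks whether the change in KO differed between VAT and spleen. No member passed the limma test (0% of all genes did), while at an unadjusted p under 0.05 6 members had a higher change in VAT and 1 a lower one (4.3% and 2.78% of all genes), and 37 of 49 lay above 0 (55.1% of all genes). The 6 are Oas1a, Ifi208, Parp9, Rtp4, Iigp1 and Tgtp1, and the 1 is Cmpk2. Tgtp1 had the smallest p, with a difference of 1.44 ± 0.32 (adjusted p = 0.408), and Iigp1 had 1.21 ± 0.37 (adjusted p = 0.598). Leaving out spleen WT replicate 3 leaves replicate 2 as the 1 spleen WT library, which lay far from the other spleen libraries in Ifi27l2a and Cmpk2. The members listed next were picked by that fit, in which spleen WT has no spread of its own. The differences were then 1.67 for Tgtp1, 1.34 for Oas1a, 1.08 for Ifi27l2a, -2.47 for Cmpk2 and -0.78 for Gbp4. With all 10 libraries they were 1.44, 1.00, 0.50, -1.56 and -0.39, in that order.

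Genes above the members in the pathway were measured in the same libraries. Of 7 interferon genes listed, Ifng is the one in the table. It stood at 1.51 and 2.93 RPKM in spleen WT, 1.197 and 6.79 in spleen KO, 13.6, 51.2 and 23.98 in VAT WT and 53.4, 31.5 and 33.8 in VAT KO, all VAT libraries above all spleen libraries, and rose by 3.09 ± 0.53 in WT and rose by 3.26 ± 0.53 in KO (adjusted p = 0.00112 and 0.00119). Among receptors and kinases (8 tested), 1 rose and 2 fell in WT, where 10.7% of all genes rose and 15.4% fell, and 1 rose in KO, where 7.65% rose and 6.94% fell. Ifngr1, the ligand-binding chain for interferon gamma, rose by 1.24 ± 0.17 and rose by 1.43 ± 0.17 in VAT, while Ifngr2, its signalling partner, fell by 1.11 ± 0.22 in WT and Ifnar2 fell by 0.82 ± 0.18 in WT. Their changes in KO were -0.70 ± 0.22 and -0.43 ± 0.18 (adjusted p = 0.0531 and 0.125). Ifnar1 had 22.7 to 32.5 RPKM in spleen and 22.2 to 27.2 in VAT.

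Of 8 STAT and IRF factors outside the set that are reported here, 2 rose and 2 fell in each genotype, where 10.7% of all genes rose and 15.4% fell in WT and 7.65% and 6.94% in KO. Irf1, a factor induced by interferon gamma, stood at 96.9 and 103 RPKM in spleen WT, 102 and 95.5 in spleen KO, 45.02, 65.3 and 51.9 in VAT WT and 64.8, 59.9 and 67.7 in VAT KO. All VAT libraries lay below all spleen libraries. Irf1 fell by 0.89 ± 0.16 in WT and fell by 0.62 ± 0.16 in KO, the latter lost without either spleen KO library or VAT KO replicate 1 or 2 (adjusted p up to 0.145). Irf2, a related factor, fell by 0.99 ± 0.18 in WT (adjusted p = 0.00153), and its change in KO was -0.41 ± 0.18 (adjusted p = 0.155). Irf3, which acts downstream of nucleic acid sensors, fell by 0.54 ± 0.17 in KO, a call lost with 7 of the 10 libraries left out in turn, either spleen KO library among them (adjusted p up to 0.232). Irf4 and Irf5 went the other way and rose by 1.41 ± 0.18 and rose by 1.13 ± 0.19 in WT and by 1.16 ± 0.18 and by 1.28 ± 0.19 in KO. Among 8 negative regulators tested, 1 (Cish) rose and 2 (Socs3 and Ptpn6) fell in both genotypes, against those shares of all genes, with the fall of Socs3 in KO lost without spleen KO replicate 2 or VAT KO replicate 1 (adjusted p up to 0.130). Of 8 sensing genes tested, 1 rose and 5 fell in WT (10.7% and 15.4% of all genes) and 2 fell in KO (6.94%). The rise, of Traf3, was lost with 6 of the 10 libraries left out in turn (adjusted p up to 0.317), the fall of Ticam1 with 5 (up to 0.368) and that of Myd88 without VAT WT replicate 1 (0.0795). Tmem173, the adaptor STING, fell in both genotypes and stood at 59.2 to 75.3 RPKM in spleen and 23.1 to 29.4 in VAT.

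**Figure D5:**
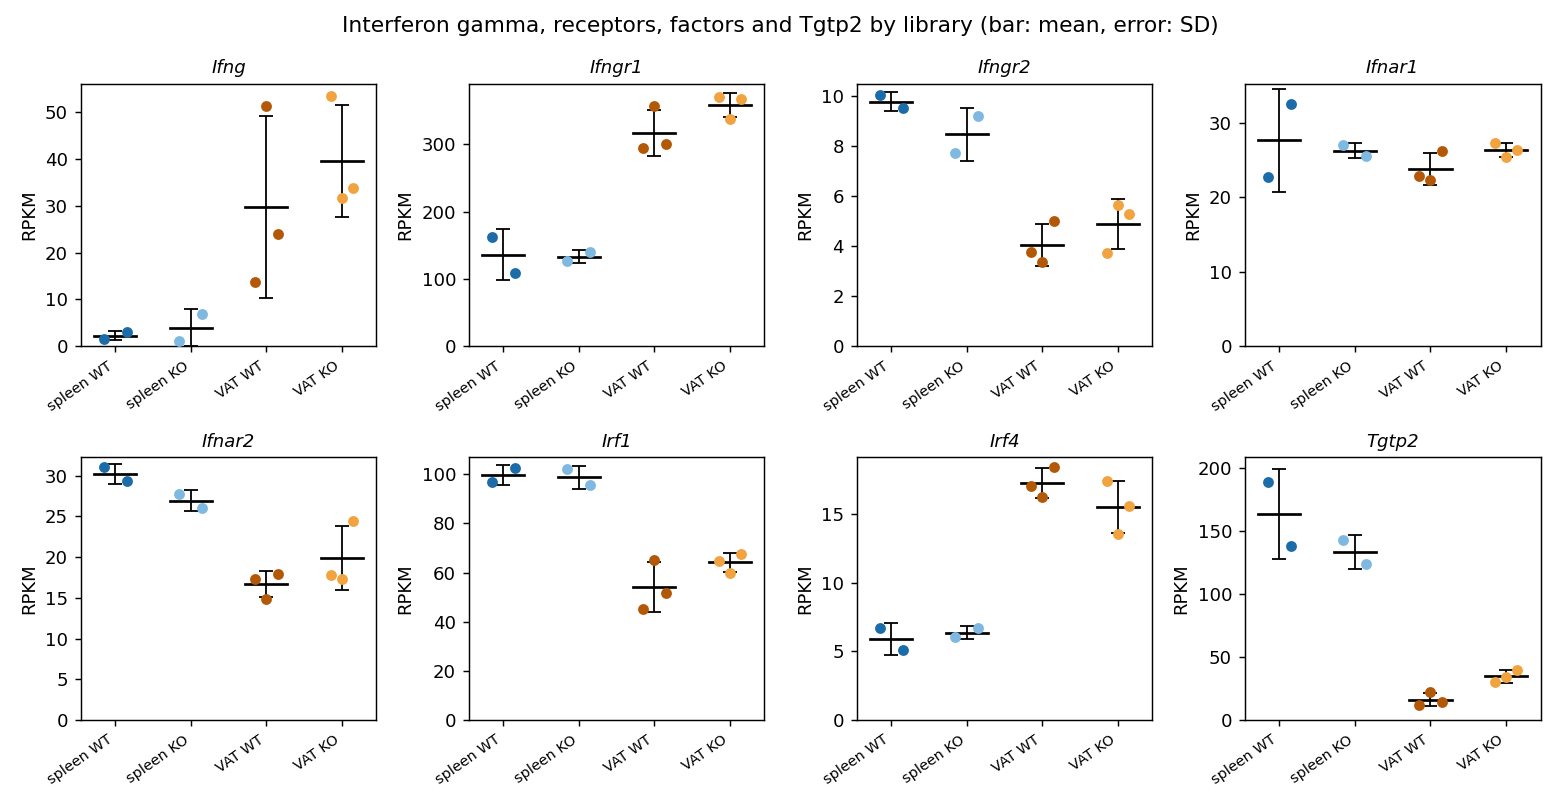
RPKM of Ifng, the chains of both interferon receptors, Irf1, Irf4 and Tgtp2 by group, on linear axes from 0, with a point for each library, a bar for the mean and error bars for the SD, cut off at 0. Ifng, Ifngr1 and Irf4 are higher in the VAT groups, and Irf1 and Tgtp2 are lower.

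A further 45 interferon-induced genes outside the set were tested for comparison, and 30 fell and 1, Zc3hav1, rose from spleen to VAT in WT (15.4% and 10.7% of all genes). In KO 18 fell and 2, Zc3hav1 and Tdrd7, rose (6.94% and 7.65% of all genes), the rise of Tdrd7 being lost with 7 of the 10 libraries left out in turn (adjusted p up to 0.292). The median changes were -0.84 in WT and -0.55 in KO. In VAT KO against VAT WT 4 of the 45 rose and 0 fell (0.307% and 0.115% of all genes), with 13 higher and 0 lower at an unadjusted p under 0.05 (4.4% and 2.95%) and a median of 0.22. Slfn1, a Schlafen protein of T cells, stood at 20.3, 29.9 and 19.9 RPKM in VAT WT and 43.6, 51.1 and 56.2 in VAT KO and rose by 1.09 ± 0.17 (adjusted p = 0.0149, up to 0.122 without VAT WT replicate 1 or 3 or VAT KO replicate 2 or 3). Ifitm2, which restricts virus entry, stood at 2.67, 3.11 and 2.499 RPKM in VAT WT and 6.41, 7.26 and 9.36 in VAT KO and rose by 1.20 ± 0.22. Tgtp2, the copy of Tgtp1, stood at 11.9, 22.4 and 14.3 RPKM in VAT WT and 29.8, 34.5 and 39.8 in VAT KO and rose by 1.09 ± 0.21. Epsti1 stood at 15.6, 18.4 and 16.9 RPKM in VAT WT and 28.6, 32.5 and 30.1 in VAT KO and rose by 0.81 ± 0.15. In each of these 4 genes the VAT KO libraries lay above the VAT WT libraries. The calls of Ifitm2, Tgtp2 and Epsti1 were lost with 7 or 8 of the 10 libraries left out in turn, each VAT KO library among them (adjusted p up to 0.283).

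Some members share sequence with other genes, and their counts may be split. Beside Tgtp1, Ifit3 was 97.82% identical to Ifit3b over 97.42% of its transcript, Oas1a 97.58% to Oas1g over 98.73% and Ifi208 96.36% to Ifi213 over 91.94%. In WT these copies fell too: Ifit3b fell by 1.998 ± 0.43 (adjusted p up to 0.0555 without spleen WT replicate 2), Oas1g fell by 1.43 ± 0.27 and Ifi213 fell by 1.49 ± 0.26. Partial copies were also found for Gbp4, Ifi204 and Ifi27l2a. The library kit does not mark strand, so reads from bases that 2 genes share cannot be assigned by strand. Annotated spans overlapped between genes of the table for Ifit1 with Ifit1bl1, Parp9 with Dtx3l, Adar with Chrnb2, Eif2ak2 with Gm6548 and Ifi27l2a with Ifi27. How far their exons overlap was not measured. Over the 51 members, 47 had a mean level of at least 1 RPKM over the 10 libraries, 33 of at least 10 and 2, Ifi27l2a and Ly6e, of at least 100.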

How the data were processed

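Bulk RNA-seq of sorted Tregs was deposited by the authors as one table of RPKM per gene and library, per the file headers. RNA was extracted with Quick-RNA MicroPrep and libraries were made with SMART-seq v4 and Nextera XT, per the labels' protocols, a full-length amplification that does not mark strand. STAR and build mm10 are named in the submitters' processing notes, and the read counter is not given in the sources used here. RPKM values hold no read counts, so counting error cannot be given and differences in the makeup of libraries are not corrected by a count model.

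Of 11 samples in the labels 10 were matched to a column by name. Spleen KO replicate 1 is not analysed here, and 1 further column of per-sample values, headed as spleen WT replicate 1, matched no sample in the labels and was not used. The table holds 15 symbols as dates, which were restored through their gene IDs, and 10987 IDs matched the RefSeq table. In the columns used 128 values are 0.

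Values were taken as log2(RPKM + 1) for the 10429 of 10992 genes with at least 1 RPKM in at least 2 libraries. One limma model (version 3.58.1, R 4.3.3) of the 4 group means, with an intensity trend, 6 residual and 6.44 prior degrees of freedom, gave all 5 comparisons. P-values were adjusted by Benjamini-Hochberg over all tested genes, and changes at an adjusted p under 0.05 were called. Fold changes on this scale understate those of low genes. The rule for naming genes took Srebf2, the called members (the 20 with the largest change where more were called), the 3 of smallest p in each role group and the member with the highest mean RPKM in each, and the 3 of smallest p in each pathway list. Members outside it were named to account for all of them, and other list genes after their values were seen. The members, pathway lists and marker lists were chosen with earlier results of these data known. A further gene of the pathway is not reported here. Motifs were searched in RefSeq promoter windows, and near copies are transcripts with at least 90% identity over at least 30% of the length (blastn 2.17.0). Alternatives were other pseudocounts, no filter or a mean of at least 5 RPKM, robust variance estimates, quantile and median-ratio scaling, sample weights, a replicate block, 2 groups alone and each library left out. The model was tested on simulated data.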

Additional observations from a re-analysis of the deposited data

How the results depend on the processing

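In WT 22 of the 36 falls, and in KO 11 of the 24, passed the threshold under each of the 20 alternatives, and counts of members called lay between 25 (sample weights) and 37 in WT with the libraries left out one at a time giving 31 to 37. In KO leaving out 1 library gave 14 to 32, with 14 without spleen KO replicate 2 or 3 and 32 without either spleen WT library.

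In VAT the count was 0 with a pseudocount of 5 and 2 with the replicate block (Tgtp1 and Ifi208, 1.14 at an adjusted p of 0.0418), and 0 to 1 with 1 library left out. In spleen the left-out libraries gave 0 to 7 and in the interaction 0 to 5. The replicate block changed no other count by over 1.5 times (0 in spleen, 35 and 22 between tissues, 0 in the interaction). Same-numbered KO and WT libraries of VAT did not deviate together from their group means (r = -0.092, 0.049 and -0.147, against -0.146 to 0.22 for unlike numbers). In spleen, 2 libraries deviate from their mean by mirrored amounts, so both numbers give 1 and the same r (-0.061), a weak check. The numbers were not taken as pairs within a tissue. Pairing of spleen with VAT libraries of the same number and genotype was not checked, and the replicate block was set within each tissue. The comparisons between tissues treat these libraries as unpaired.

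Of 152 single-gene results 127 kept their sign under every alternative. In VAT Herc6 was -0.0035 with quantile and -0.0097 with median-ratio scaling. In spleen Ifi208 was 0.0080 with median ratios, and in the interaction Ifit1 was 0.0143 with a pseudocount of 5. With 1 library left out, changes in VAT KO against VAT WT ranged from -0.17 to 0.30 for Herc6, -0.17 to 0.048 for Stat2, -0.98 to 0.076 for Ifit1, -0.026 to 0.23 for Oas3, -0.21 to 0.064 for Irf7, -0.023 to 0.30 for Usp18, -0.25 to 0.060 for Trim25 and -0.87 to 0.21 for Ifit3. In spleen they ranged from -0.078 to 0.18 for Irf7, -0.016 to 0.22 for Trim25, -0.82 to 0.024 for Ifit1, -0.62 to 0.042 for Oas1a, -0.27 to 0.61 for Dtx3l, -0.027 to 1.79 for Cmpk2, -0.20 to 1.48 for Gbp2b, -0.023 to 0.74 for Gbp4, -0.48 to 0.44 for Ifi208 and -0.14 to 0.28 for Stat2. Interaction values ranged from -0.11 to 2.04 for Ifit3, -0.58 to 0.47 for Ifit1, -0.29 to 0.59 for Dtx3l, -0.34 to 0.088 for Stat2, -0.26 to 0.018 for Irf7, -0.073 to 0.37 for Usp18 and -0.26 to 0.065 for Ifi203. The cause was not tested.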
